A study of Mus musculus with 39 samples.

Results

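Translation initiation factors are the proteins that load the first tRNA and the mRNA onto the ribosome. eIF2 carries the initiator tRNA to the small ribosomal subunit, and eIF2B recharges eIF2 with GTP after each round. Phosphorylation of the eIF2 α subunit by stress kinases such as PERK blocks eIF2B and lowers protein synthesis while it favours translation of ATF4. eIF4F recruits the capped mRNA, eIF3 bridges the mRNA and the small subunit, and eIF1, eIF1A and eIF5 set where scanning stops. In β cells this step is tied to insulin, since a large part of protein synthesis is proinsulin made at the endoplasmic reticulum.

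The genes were taken as the symbols of the count table that begin with Eif and a digit from 1 to 6, without the eIF2 kinases (Eif2ak), the eIF4E-binding proteins (Eif4ebp), pseudogene symbols and Eif4enif1. This gave 47 of 24421 gene symbols. The rule used names alone, although it was set with earlier results of these data known. They comprise 9 genes of eIF2 and eIF2B, 2 genes of other tRNA carriers (Eif2a and Eif2d), 7 genes of start site selection and subunit joining, 14 genes of eIF3, 12 genes of eIF4 and 3 genes of eIF5A and eIF6. RNA was sequenced from MIN6 cells, a mouse insulinoma line used as a model of β cells, in 3 independent experiments. Each experiment held 13 cultures in high-glucose medium, namely untreated cells at 0 h and cells kept for 1, 2, 6 or 24 h in 0.1% DMSO, in 5 μM SW016789 (a small molecule that provokes insulin hypersecretion) or in 100 nM thapsigargin (Tg, an inhibitor of the ER calcium pump that causes ER stress). Each of the 13 groups thus had 3 libraries. Levels are CPM, the share of a library's counts scaled by TMM, and a gene was called where edgeR's quasi-likelihood test gave a Benjamini-Hochberg adjusted p below 0.05 over the 21752 genes tested.

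Libraries held 9150443 to 47616080 counts, with a median of 32153770. Groups differed in the share of reads that fell outside genes (intergenic reads, as a percent of those of high quality). It was 8.24 to 33.95% in the 9 Tg libraries of 1 to 6 h, 6.17 to 36.6% in the 9 SW016789 libraries and 6.48 to 17.04% in the 9 DMSO libraries over the same hours, and 6.23 to 9.09% in all 9 libraries of 24 h. The defining β cell markers were present, with baseline means of 10885 CPM for Ins2, 3139 CPM for Ins1 and 415 CPM for Pdx1. The summed level of 15 β cell markers was 33533 to 37204 CPM in the DMSO libraries at 6 h and 20151 to 21691 CPM in the Tg libraries, and the sums at 24 h were 36127 to 44761 CPM and 19643 to 20735 CPM. The part of this difference in the values of the initiation factors was not tested. In these bulk samples fewer cells of a type and less RNA per cell cannot be told apart.

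Sequence upstream of the gene start was shown for 3 members, because Eif2s2 had the largest called increase at 6 h, Eif3a carried a motif tied to the unfolded protein response and Eif5a2 had the largest called decrease. The 150 bases before each start are given 5′ to 3′ on the gene's strand, from RefSeq on GRCm38.p6. Eif2s2 lies at chr2:154892907-154893056 on the minus strand, Eif3a at chr19:60790694-60790843 on the minus strand and Eif5a2 at chr3:28781127-28781276 on the plus strand. Capitals mark matches to the motifs searched on both strands.
Eif2s2: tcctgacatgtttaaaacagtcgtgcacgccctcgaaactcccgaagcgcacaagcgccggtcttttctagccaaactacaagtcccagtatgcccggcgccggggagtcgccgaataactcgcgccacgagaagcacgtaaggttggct
Eif3a: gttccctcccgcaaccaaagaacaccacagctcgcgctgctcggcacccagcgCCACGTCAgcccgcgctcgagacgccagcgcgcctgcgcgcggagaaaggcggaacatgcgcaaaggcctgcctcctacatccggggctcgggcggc
Eif5a2: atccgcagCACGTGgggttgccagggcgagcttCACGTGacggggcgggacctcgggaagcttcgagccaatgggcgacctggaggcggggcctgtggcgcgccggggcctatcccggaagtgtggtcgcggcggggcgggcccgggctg

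A promoter was matched for 37 of the 47 members, and 4 motifs were searched in the 250 bases before the start. The C/EBP-ATF element TGATGNAA, to which ATF4 binds as a dimer, was found in 1 member, Eif2s3x, against 3.91% of 27025 genes. The cyclic AMP response element TGACGTCA was in 0 members and 1.77% of genes. TGACGTGG, an ATF6 and XBP1 site whose first letters TGACGT are those of the former motif, was in 1 member, Eif3a, at 97 to 90 bases before the start, and in 0.603% of genes. The E-box CACGTG, bound by MYC and USF factors, was in 9 members (Eif1b, Eif3f, Eif3k, Eif4a1, Eif4e, Eif4g1, Eif4h, Eif5a and Eif5a2) and 6.86% of genes. Of the members with an E-box, Eif3k and Eif5a2 were called lower in Tg at 6 h, and Eif4e higher in SW016789. At 24 h Eif5a2 was called lower and Eif4g1 higher in Tg. Of the 45 members tested, 10 were called higher and 4 lower in Tg at 6 h, and 17 and 1 at 24 h. In SW016789 at 6 h 9 were called higher and 0 lower. A match of letters is a description only.

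**Figure D1:**
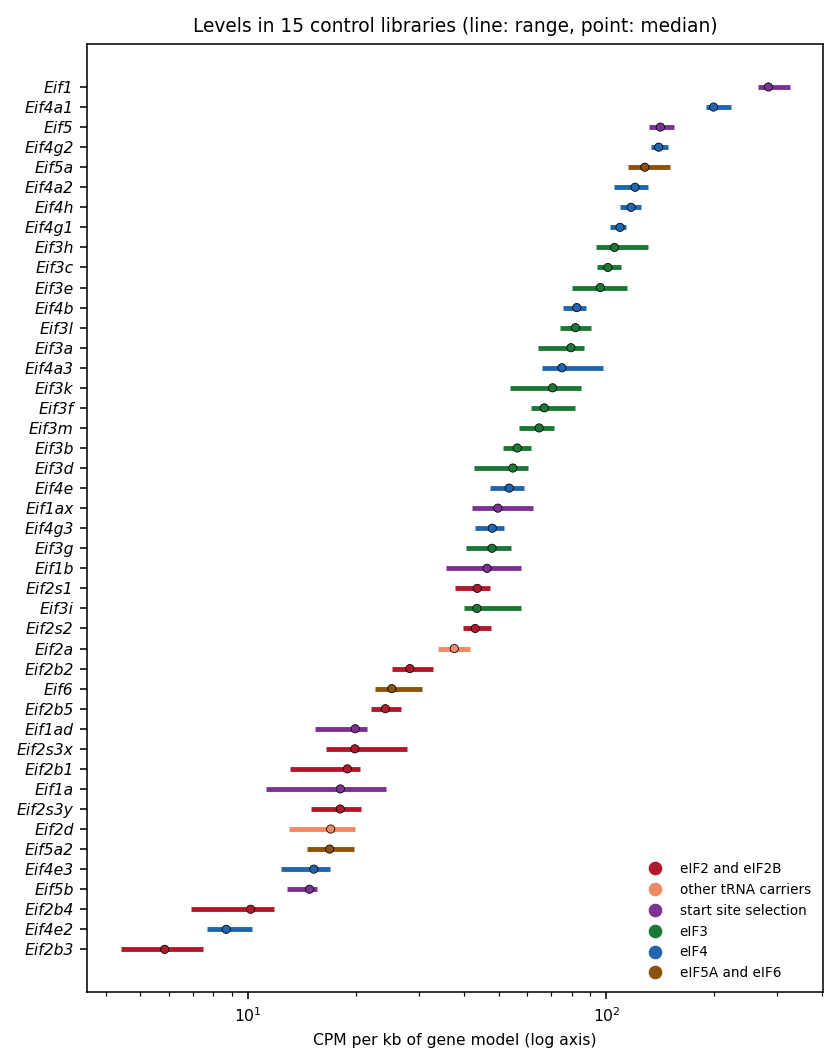
Level of 44 initiation factor genes in the 15 control libraries (0 h baseline and DMSO), in CPM per kb of gene model on a log axis, with the range as a line and the median as a point, coloured by role. Eif1 was highest with a median of 283 and Eif2b3 lowest with 5.85.

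In the 15 control libraries (0 h and DMSO) the initiation factor genes spanned medians from 5.85 to 283 CPM per kb of gene model. Eif1, which keeps scanning ribosomes open until a start codon is met, was the highest of all, at 265 to 325 CPM per kb. The helicase gene Eif4a1 followed at 189 to 222 CPM per kb without overlap. Eif5 (131 to 155), the GTPase activator of eIF2, Eif4g2 (133 to 148), a scaffold related to eIF4G, and Eif5a (114.5 to 150.4), which helps ribosomes through difficult peptides, overlapped each other. Among the eIF2 subunits, Eif2s1 (α, 43.6 CPM per kb) and Eif2s2 (β, 43.0 CPM per kb) had nearly equal medians, and Eif2s3x (γ, X-linked) and Eif2s3y (its Y-linked copy) were at 19.9 and 18.1. All eIF2B subunits were lower than Eif2s1, with medians from 5.85 for Eif2b3 (γ) to 28.3 for Eif2b2 (β).

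Of the 47 members, 45 passed the filter on low counts. Eif3j1 had 5 reads in 2 libraries and Eif3j2 had 0 reads. The deposited table places both on the same stretch of chromosome 2 (chr2:122028580-122053632 and chr2:122028583-122053631 on mm10), where a read overlaps both annotations, so their level is not known from these counts. Eif4e1b, an eIF4E relative of oocytes, had 304 reads in 23 libraries and is given no fold. The other 44 members had a mean of at least 10 CPM in the control libraries. Reads of near-identical stretches shared by Eif2s3x and Eif2s3y, Eif1a and Eif1ax, Eif4a1 and Eif4a2 or Eif5a and Eif5a2 are lost when only unique reads are counted, so their levels are uncertain to that extent.

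DMSO alone was compared with the 0 h baseline to learn whether the vehicle moved these genes. No member was called at 1, 2, 6 or 24 h by edgeR, where 0.0, 0.00919, 0.0 and 0.0% of all genes were called. At an unadjusted p below 0.05 there were 0, 2, 0 and 1 members, and DESeq2 called 0 at each time.

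**Figure D2:**
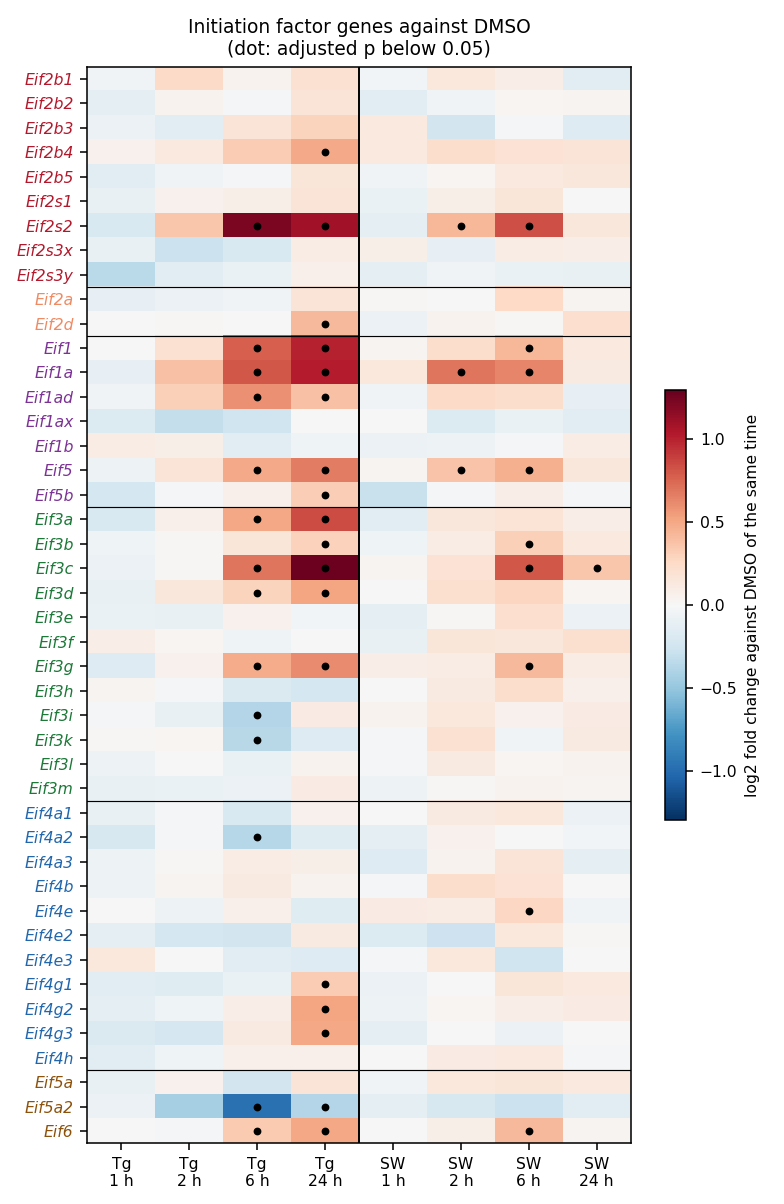
Log2 fold change against DMSO of the same time for 44 initiation factor genes in Tg and SW016789 at 1, 2, 6 and 24 h, grouped by role. Dots mark an adjusted p below 0.05 (edgeR). Calls were few up to 2 h, 14 for Tg and 9 for SW016789 at 6 h, and 18 for Tg and 1 for SW016789 at 24 h.

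Thapsigargin was the ER stress treatment of the study. At 1 h no member was called against DMSO by edgeR, where 0.0414% of all genes were called higher and 0.0046% lower, with 3 members at an unadjusted p below 0.05 and 0 called by DESeq2. At 2 h again no member was called, where 0.952% of genes were called higher and 0.432% lower, with 10 members at an unadjusted p below 0.05 and 3 called by DESeq2. With the experiment number as a block, 2 members were called at 2 h, Eif2s2 at 0.36 (adjusted p = 0.032) and Eif5a2 at -0.43 (adjusted p = 0.0042). With the intergenic share added to the block the Eif5a2 value was -0.25 (adjusted p = 0.082) and no longer called, and 6 members were called, all higher (Eif1, Eif1a, Eif1ad, Eif2s2, Eif3d and Eif5).

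At 6 h of Tg, 10 members rose and 4 fell among the 45 tested, where 8.06% of all genes were called higher and 8.73% lower. Among the 9938 genes with at least 10 CPM, 11.7% were called higher and 18.6% lower. The risers were Eif2s2 of eIF2, Eif1, Eif1a, Eif1ad and Eif5 of start site selection and subunit joining, Eif3a, Eif3c, Eif3d and Eif3g of eIF3, and Eif6. The fallers were Eif5a2, Eif4a2, Eif3i and Eif3k. The median log2 fold change of the members was 0.05, beside 0.30 for all genes and -0.04 for the genes with at least 10 CPM. The order of the members and all genes turned with the experiment block and the intergenic share as a covariate, at 0.13 beside 0.04, and the medians were 0.10 beside 0.10 without the libraries above 25% intergenic reads and 0.04 beside 0.05 when only the libraries compared were fitted.

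At 24 h of Tg, 17 members rose and 1 fell, where the calls over all genes were 10.1% higher and 10.7% lower, and among genes with at least 10 CPM 19.7 and 21.4%. All 10 members that had risen at 6 h were called higher at 24 h as well, against separate DMSO libraries. The 7 others were Eif2b4, Eif2d, Eif3b, Eif4g1, Eif4g2, Eif4g3 and Eif5b, and Eif5a2 was again lower. The median over the members was 0.17, beside 0.07 for all genes and 0.02 for genes with at least 10 CPM. The intergenic share of all libraries at 24 h was below 10%, in a range of 6.48 to 8.86% for Tg and 6.55 to 7.15% for DMSO. At 6 h it was 8.24, 20.2 and 33.95% in the Tg libraries and 6.80 to 7.55% in the DMSO libraries. With the experiment block and the intergenic share as a covariate, 15 members were called higher and 3 lower in Tg at 6 h, and without the libraries above 25% intergenic reads 9 and 3.

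SW016789 was the hypersecretion treatment. At 1 h no member was called by edgeR, where 0.336% of genes were called higher and 0.0368% lower, with 1 member at an unadjusted p below 0.05 and 0 called by DESeq2. At 2 h 3 members rose and 0 fell (Eif1a, Eif2s2 and Eif5), where 1.9% of genes were called higher and 0.68% lower, and 3.96 and 1.31% among genes with at least 10 CPM. At 6 h 9 members rose and 0 fell, where 4.19% of genes were called higher and 2.85% lower, and 8.66 and 6.17% among genes with at least 10 CPM. These were Eif2s2, Eif1, Eif1a, Eif5, Eif3b, Eif3c, Eif3g, Eif4e and Eif6. At 24 h Eif3c alone was called higher and 0 members lower, where 1.95% of genes were called higher and 1.06% lower, with 3 members at an unadjusted p below 0.05.

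The count for SW016789 at 6 h changed when single libraries were left out. It fell from 9 to 2 without DMSO replicate 1 or without SW016789 replicate 2, and to 4 without SW016789 replicate 3. Without DMSO replicate 1 Eif1, Eif1a and Eif5 lost their calls at log2 values of 0.43, 0.64 and 0.49. With all libraries these were 0.43, 0.64 and 0.46, and without SW016789 replicate 2 they were 0.33, 0.49 and 0.38. SW016789 replicate 1 had 26.5% intergenic reads, and without the 6 libraries of the series above 25% the count was 16, all higher. Over all genes 1149 were then called higher and 256 lower, beside 911 and 620 with all libraries. With the experiment block and the intergenic share as a covariate the count was 20 higher and 1 lower. Eif1ad, Eif2a, Eif2s1, Eif3a, Eif3d, Eif3e, Eif3h, Eif4a1, Eif4b, Eif4g1 and Eif5a were added to those higher, and Eif5a2 was called lower. Over all genes this fit called 1430 higher and 989 lower. At 2 h the count fell to 1 without DMSO replicate 3 or SW016789 replicate 3, and to 0 when only the libraries compared were fitted. The Tg count at 6 h fell from 14 to 8 without DMSO replicate 1. At 24 h of Tg it stayed between 13 and 17 without any 1 of the 6 libraries.

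**Figure D3:**
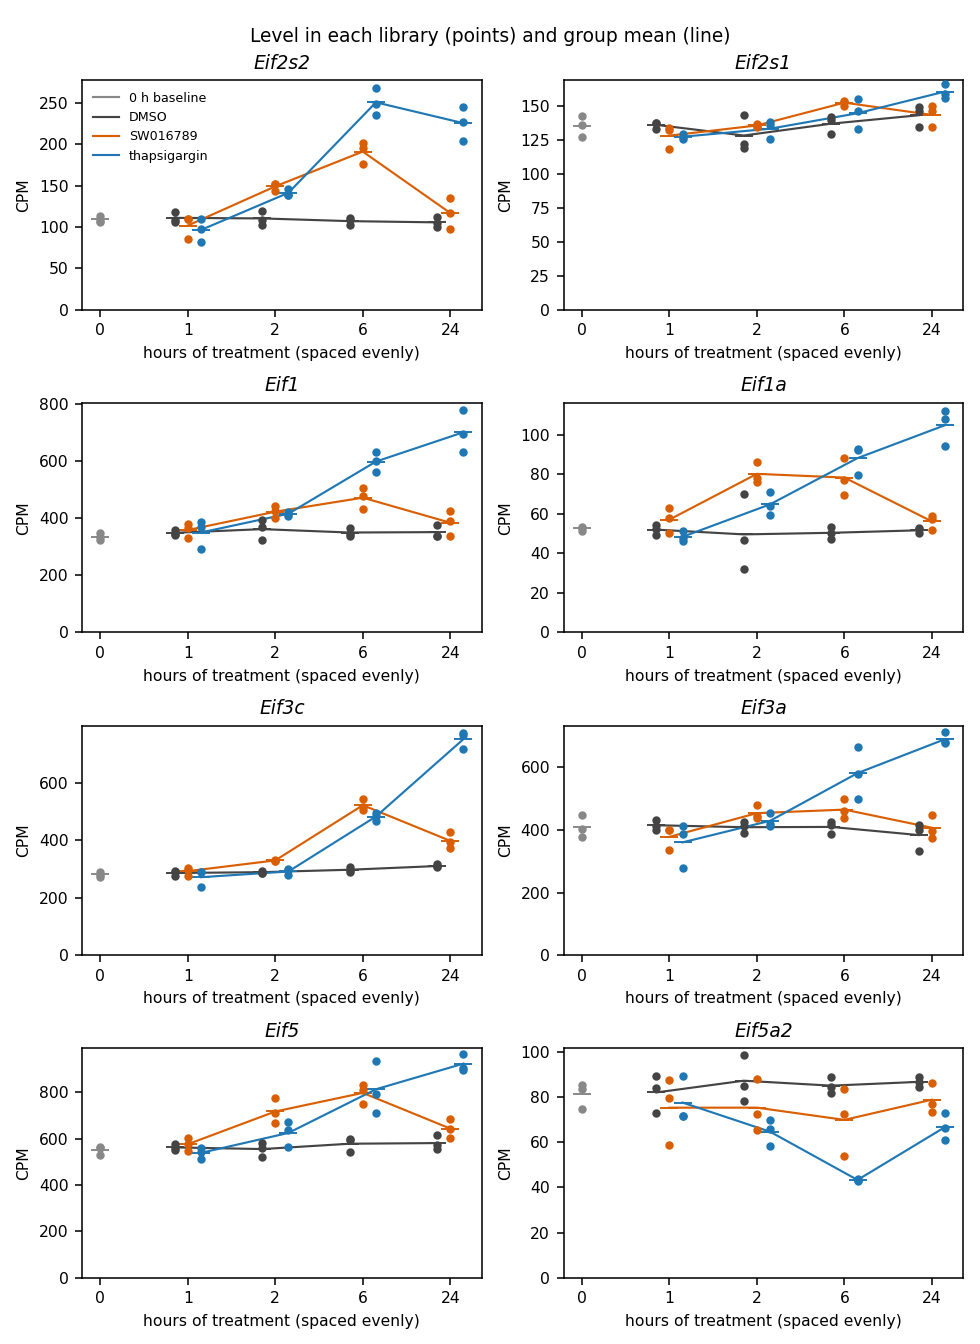
Level in CPM of 8 members in every library (points) with the group mean (line) for 0 h baseline, DMSO, SW016789 and Tg, with the hours of treatment spaced evenly. Eif2s2, Eif1, Eif1a, Eif3c, Eif3a and Eif5 stood above DMSO in all Tg libraries of 6 and 24 h, Eif5a2 stood below, and Eif2s1 had no call in the fit without covariates.

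Within eIF2, the gene of the β subunit was the one called. Eif2s2 encodes eIF2β, which holds the contacts of eIF2 with eIF5 and eIF2B. At 6 h it was at 268, 236 and 248 CPM in the Tg libraries of replicates 1 to 3, at 176, 202 and 195 CPM in the SW016789 libraries and at 108.3, 110.3 and 102.5 CPM in the DMSO libraries. The lowest Tg library lay above the highest SW016789 library, and all SW016789 libraries lay above all DMSO libraries. The log2 fold change of Eif2s2 against DMSO was 1.23 ± 0.10 (SE, n = 3 per group, edgeR adjusted p = 1.3e-11) for Tg, a fold of 2.34, and 0.84 ± 0.10 (adjusted p = 1.3e-07) for SW016789. No single library ended either call, with ranges of 1.05 to 1.24 and 0.75 to 0.89.

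At 1 h Eif2s2 was within the range of DMSO or below it in every treated library, with 97.6, 81.8 and 109.6 CPM in Tg. At 2 h it was at 152, 144 and 152 CPM in SW016789 and 139, 145 and 139 CPM in Tg, against 102.5, 119.4 and 108.97 CPM in DMSO. The log2 fold change at 2 h was 0.43 ± 0.10 for SW016789 (adjusted p = 0.0087), lost without DMSO replicate 3 or SW016789 replicate 3, and 0.36 ± 0.10 for Tg (adjusted p = 0.066). At 24 h Eif2s2 was at 204, 245 and 227 CPM in Tg and 117.2, 98.1 and 135 CPM in SW016789, against 99.8, 111.5 and 105.3 CPM in DMSO. The Tg libraries still stood apart at 1.09 ± 0.10 (adjusted p = 5.7e-11), whereas SW016789 overlapped DMSO at 0.15 ± 0.10 (adjusted p = 0.74).

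The other subunits of eIF2 were not called in either treatment at any time, with or without the block. Eif2s1, the α subunit that carries the phosphorylation site, was at 155, 133 and 146 CPM in Tg at 6 h and at 140, 142 and 130 CPM in DMSO, a log2 fold change of 0.08 ± 0.07 (adjusted p = 0.41). At 24 h its Tg value was 0.17 ± 0.07 (adjusted p = 0.11), with 159, 156 and 167 CPM against 146, 149 and 134 CPM in DMSO. With the block and the intergenic share as a covariate Eif2s1 was called, at 0.17 in Tg at 24 h (adjusted p = 0.028) and 0.19 in SW016789 at 6 h (adjusted p = 0.036). Eif2s3x was at -0.19 ± 0.13 and 0.10 ± 0.13 at these times, and Eif2s3y at -0.09 ± 0.13 and 0.06 ± 0.13.

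The ratio of Eif2s2 to Eif2s1 reads per base was therefore taken within each library, a measure that needs no scaling between libraries and was chosen after the values were seen. It was 0.98 ± 0.010 (SD, n = 3) in DMSO at 6 h and ranged from 0.854 to 1.15 over all 15 control libraries. In Tg it was 1.33 ± 0.064 at 2 h, 2.17 ± 0.049 at 6 h and 1.76 ± 0.19 at 24 h. In SW016789 it was 1.38 ± 0.033 at 2 h, 1.57 ± 0.11 at 6 h and 1.03 ± 0.18 at 24 h. All Tg and SW016789 libraries of 2 and 6 h, and all Tg libraries of 24 h, lay above the highest control library, and no p is given since the ratio followed from the calls.

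**Figure D4:**
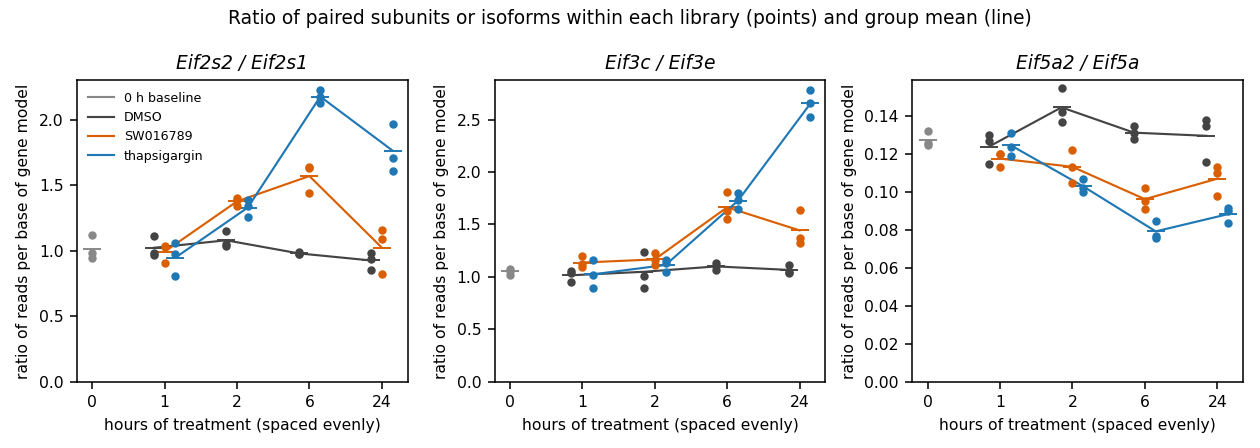
Ratio of reads per base of gene model within each library (points) and group mean (line) for Eif2s2 to Eif2s1, Eif3c to Eif3e and Eif5a2 to Eif5a, over the hours of treatment. The Eif2s2 to Eif2s1 ratio was highest in Tg at 6 h (2.17) and the Eif3c to Eif3e ratio in Tg at 24 h (2.65), and the Eif5a2 to Eif5a ratio was lowest in Tg at 6 h (0.0793).

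The 5 genes of eIF2B, the exchange factor of eIF2, gave 1 call in the 8 comparisons with DMSO. That call was in Tg at 24 h, where 10.1% of all genes were called higher, and 19.7% among genes with at least 10 CPM. Eif2b4, the δ subunit in the regulatory part of the complex, was at 32.1, 27.7 and 25.5 CPM in Tg at 24 h against 21.4, 19.8 and 19.5 CPM in DMSO. All 3 Tg libraries were above all 3 DMSO libraries, a log2 fold change of 0.49 ± 0.13 (adjusted p = 0.0036) that no single library ended. At 6 h of Tg Eif2b4 was at 0.33 ± 0.13 (adjusted p = 0.066), and with the experiment block at 0.33 (adjusted p = 0.037), a call lost again with the intergenic share added (adjusted p = 0.082). Eif2b1 (α), Eif2b2 (β), Eif2b3 (γ) and Eif2b5 (the catalytic ε subunit) were at 0.20, 0.17, 0.29 and 0.15 in Tg at 24 h, with adjusted p from 0.14 to 0.34. Eif2d, which can place tRNA on the ribosome without eIF2, was at 54.0, 55.8 and 48.3 CPM in Tg at 24 h against 40.8, 38.1 and 38.9 CPM in DMSO (0.42 ± 0.10, adjusted p = 0.0015). Eif2a, another such carrier and not a subunit of eIF2, was at 0.17 ± 0.09 (adjusted p = 0.24).

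Of the 7 genes of start site selection and subunit joining, 4 were called higher in Tg at 6 h and 5 at 24 h. In SW016789 the calls were 3 at 6 h and 0 at 24 h. Over all genes 8.06 and 10.1% were called higher in Tg at these times, and 4.19 and 1.95% in SW016789. The Tg calls include Eif1ad, grouped here by its likeness to eIF1A, at both times and Eif5b, of subunit joining, at 24 h. Eif1 was at 632, 560 and 599 CPM in Tg at 6 h, at 432, 505 and 475 CPM in SW016789 and at 345, 365 and 338 CPM in DMSO. Its groups did not overlap, with log2 fold changes of 0.77 ± 0.09 (adjusted p = 1.1e-07) for Tg and 0.43 ± 0.09 (adjusted p = 0.0018) for SW016789. At 24 h the Tg libraries were at 629, 692 and 778 CPM against 338, 376 and 338 CPM in DMSO (1.00 ± 0.09, adjusted p = 1.2e-10), while SW016789 at 389, 337 and 424 CPM overlapped DMSO (0.13 ± 0.09, adjusted p = 0.77). The SW016789 call at 6 h was lost without DMSO replicate 1, SW016789 replicate 2 or SW016789 replicate 3, in a range of 0.33 to 0.49.

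Eif1a and Eif1ax encode eIF1A, which works with eIF1 on the scanning ribosome. Eif1a, on chromosome 18 in mouse, was at 76.3, 78.1 and 86.3 CPM in SW016789 at 2 h, above the widely spread DMSO libraries at 46.7, 32.2 and 69.8 CPM (0.69 ± 0.14, adjusted p = 0.0018). This value ranged from 0.46 to 1.09 without any 1 library and was not called when only the libraries compared were fitted. At 6 h Eif1a was at 92.1, 79.8 and 92.7 CPM in Tg, 69.3, 88.4 and 77.3 CPM in SW016789 and 50.2, 53.5 and 47.5 CPM in DMSO, with log2 fold changes of 0.81 ± 0.14 (adjusted p = 4.4e-05) and 0.64 ± 0.14 (adjusted p = 0.0018). The SW016789 call was lost without DMSO replicate 1 or SW016789 replicate 2. At 24 h Tg was at 94.2, 112.1 and 108.2 CPM against 52.6, 50.3 and 52.1 CPM in DMSO (1.02 ± 0.14, adjusted p = 3.1e-07). Eif1ax was at -0.26 ± 0.13 in Tg at 6 h and 0.01 ± 0.12 at 24 h, with no call. The Eif1a to Eif1ax ratio of reads per base was 0.34 ± 0.0089 in DMSO and 0.71 ± 0.081 in Tg at 6 h (SD, n = 3).

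Eif1b, a relative of Eif1, was at 41.2, 40.8 and 36.4 CPM in Tg at 6 h against 42.6, 45.5 and 42.6 CPM in DMSO, without a call (-0.14 ± 0.11, adjusted p = 0.32). The Eif1 to Eif1b ratio of reads per base was 6.07 ± 0.065 in DMSO at 6 h, 11.5 ± 1.05 in Tg and 8.27 ± 0.34 in SW016789. In Tg at 24 h it was 12.3 ± 0.51.

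Eif5, the partner of eIF2β, was at 773, 708 and 668 CPM in SW016789 at 2 h and 561, 581 and 521 CPM in DMSO (0.37 ± 0.08, adjusted p = 0.0061), a call lost without SW016789 replicate 1, SW016789 replicate 3 or DMSO replicate 3. At 6 h it was at 936, 710 and 791 CPM in Tg, 811, 831 and 748 CPM in SW016789 and 597, 595 and 541 CPM in DMSO. Both treatments stood above DMSO and overlapped each other, with 0.49 ± 0.08 (adjusted p = 3.2e-05) for Tg and 0.46 ± 0.08 (adjusted p = 0.00014) for SW016789. The Tg value fell to 0.25 and lost its call without Tg replicate 1, and the SW016789 call was lost without DMSO replicate 1 or SW016789 replicate 2. At 24 h Tg was at 905, 966 and 897 CPM against 614, 574 and 553 CPM in DMSO (0.67 ± 0.08, adjusted p = 4.9e-08). Eif1ad, a relative of eIF1A, was at 0.59 ± 0.10 in Tg at 6 h (adjusted p = 6.0e-05) and 0.38 ± 0.10 at 24 h (adjusted p = 0.0053), the latter lost without replicate 2 or 3 of either group. Eif5b, which joins the ribosomal subunits, was called in Tg at 24 h at 0.32 ± 0.10 (adjusted p = 0.022) and lost without replicate 2 or 3 of either group.

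Of the 12 eIF3 genes tested, 4 were called higher and 2 lower in Tg at 6 h, 5 higher in Tg at 24 h, 3 higher in SW016789 at 6 h and 1 at 24 h. Over all genes 8.06% were called higher and 8.73% lower in Tg at 6 h. The shares called higher were 10.1% in Tg at 24 h, and 4.19 and 1.95% in SW016789 at 6 and 24 h. Eif3c, a core subunit that binds eIF1 and eIF5, had the largest fold change of the members called at 24 h. It was at 495, 469 and 485 CPM in Tg at 6 h, at 516, 544 and 507 CPM in SW016789 and at 297, 306 and 289 CPM in DMSO. SW016789 was thus no lower than Tg, with log2 fold changes of 0.81 ± 0.07 (adjusted p = 3.4e-11) and 0.70 ± 0.07 (adjusted p = 9.6e-10). At 24 h Tg reached 716, 768 and 772 CPM (1.28 ± 0.07, adjusted p = 5.4e-17), and SW016789 stood at 427, 374 and 393 CPM (0.36 ± 0.07, adjusted p = 0.00088), against 316, 310 and 305 CPM in DMSO. No single library ended the calls of Tg at either time or of SW016789 at 6 h, and the SW016789 call at 24 h was lost without SW016789 replicate 1.

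Eif3a, the largest subunit and a scaffold of eIF3, was at 666, 499 and 579 CPM in Tg at 6 h and 426, 388 and 415 CPM in DMSO. The groups did not overlap (0.51 ± 0.11, adjusted p = 6.9e-04), but the Tg replicates were spread and the call was lost without DMSO replicate 1 or Tg replicate 1, in a range of 0.27 to 0.57. At 24 h the Tg libraries were at 679, 712 and 680 CPM against 416, 334 and 401 CPM (0.85 ± 0.11, adjusted p = 8.4e-08), and no single library ended this call. In SW016789 Eif3a was not called, with 498, 461 and 437 CPM at 6 h and 448, 375 and 398 CPM at 24 h, except at 6 h with the block and the intergenic share (0.24, adjusted p = 0.014).

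Eif3g, an RNA-binding subunit, was at 71.5, 67.8 and 71.7 CPM in Tg at 6 h, 62.1, 67.4 and 71.6 CPM in SW016789 and 51.8, 52.2 and 46.8 CPM in DMSO. Its log2 fold changes were 0.49 ± 0.12 (adjusted p = 0.0024), lost without replicate 1 of DMSO or Tg, and 0.42 ± 0.12 (adjusted p = 0.018), lost without 5 of the 6 libraries. At 24 h of Tg Eif3g was at 0.62 ± 0.11 (adjusted p = 6.3e-05) with no library ending the call. Eif3b, another core subunit, was called in Tg at 24 h (0.30 ± 0.07, adjusted p = 7.8e-04) and in SW016789 at 6 h (0.31 ± 0.07, adjusted p = 0.0020). The first was lost without replicate 3 of either group and the second without DMSO replicate 1 or SW016789 replicate 2 or 3. Eif3d, which can bind the mRNA cap, was at 0.51 ± 0.10 in Tg at 24 h (adjusted p = 1.1e-04), and its 6 h call of 0.29 ± 0.10 was lost without any 1 of the 6 libraries.

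The other eIF3 genes were not called higher against DMSO in the fit without a block. Eif3i was at 36.9, 38.7 and 44.5 CPM in Tg at 6 h and 48.3, 55.9 and 51.9 CPM in DMSO, a fall of -0.38 ± 0.11 (adjusted p = 0.014) that was lost without DMSO replicate 2. Eif3k fell by 0.36 ± 0.12 (adjusted p = 0.031) and lost its call without 4 of the 6 libraries, without the libraries above 25% intergenic reads and with the block and the intergenic share (-0.25, adjusted p = 0.083). At 24 h both had no call. Eif3e, Eif3f, Eif3h, Eif3l and Eif3m had no call against DMSO, with log2 values in Tg at 24 h of -0.04, -0.01, -0.22, 0.04 and 0.11. With the experiment block Eif3h was called in Tg at 24 h at -0.22 (adjusted p = 0.022) and in SW016789 at 6 h at 0.23 (adjusted p = 0.045). With the intergenic share added Eif3e was called in SW016789 at 6 h at 0.26 (adjusted p = 0.0067). The Eif3c to Eif3e ratio of reads per base was 1.1 ± 0.027 in DMSO at 6 h, 1.73 ± 0.076 in Tg and 1.66 ± 0.13 in SW016789, and in Tg at 24 h 2.65 ± 0.13 against 1.06 ± 0.041 in DMSO (SD, n = 3).

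Of the 12 eIF4 genes tested, 3 were called higher in Tg at 24 h, all of them scaffold genes. Over all genes 10.1% were called higher at that time, and 19.7% among genes with at least 10 CPM. Eif4g1 encodes the main eIF4G of the cap complex, Eif4g3 its second form, and Eif4g2 a form that lacks the site for the cap-binding protein. Eif4g2 was at 1565, 1599 and 1639 CPM in Tg and 1144, 1149 and 1080 CPM in DMSO (0.51 ± 0.08, adjusted p = 2.5e-06). Eif4g3 was at 440, 433 and 396 CPM against 305, 291 and 299 CPM (0.50 ± 0.09, adjusted p = 6.7e-05). Both calls held without any 1 library. Eif4g1 was at 730, 775 and 747 CPM against 600.0, 618 and 574 CPM (0.33 ± 0.08, adjusted p = 0.0021), lost without DMSO replicate 3 or Tg replicate 2 or 3. With the block and the intergenic share Eif4g2 and Eif4g3 were also called in Tg at 6 h, at 0.21 (adjusted p = 0.0045) and 0.22 (adjusted p = 0.030). That fit called Eif4g1 in SW016789 at 6 h at 0.22 (adjusted p = 0.0042).

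The cap-binding protein gene Eif4e was called in SW016789 at 6 h at 0.26 ± 0.08 (adjusted p = 0.040), with 169, 194 and 191 CPM against 163, 155 and 142 CPM in DMSO, and lost its call without 5 of the 6 libraries and when only the libraries compared were fitted. Eif4a2, a helicase of eIF4F, was at 320, 279 and 271 CPM in Tg at 6 h and 383, 378 and 365 CPM in DMSO (-0.37 ± 0.09, adjusted p = 0.0025), lost without DMSO replicate 1. Eif4a1, its close relative, was at -0.20 ± 0.09 (adjusted p = 0.090). Eif4a3 of the exon junction complex, the helicase cofactors Eif4b and Eif4h, and the cap-binding relatives Eif4e2 and Eif4e3 had no call against DMSO. With the block and the intergenic share Eif4b was called at 0.24 in Tg at 6 h (adjusted p = 0.0049), 0.26 in SW016789 at 2 h (adjusted p = 0.0033) and 0.24 in SW016789 at 6 h (adjusted p = 0.0036), and Eif4a3 at 0.27 in Tg at 6 h (adjusted p = 0.042).

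Eif5a2 had the largest fall. It encodes a second form of eIF5A. It was at 43.2, 43.7 and 43.0 CPM in Tg at 6 h, 53.7, 72.4 and 83.4 CPM in SW016789 and 81.8, 88.9 and 84.3 CPM in DMSO. The Tg libraries were tightly grouped and lay below all others (-0.97 ± 0.13, adjusted p = 8.0e-07), and no single library ended this call. SW016789 overlapped DMSO at -0.28, and with the experiment block it was called at -0.29 (adjusted p = 0.027). At 24 h Tg was at 60.8, 66.2 and 73.1 CPM against 84.3, 86.8 and 88.9 CPM in DMSO (-0.38 ± 0.13, adjusted p = 0.031), a call lost without any 1 of the 6 libraries. Eif5a had no call against DMSO, with -0.24 ± 0.11 in Tg at 6 h (adjusted p = 0.097), called with the experiment block at -0.24 (adjusted p = 0.038). With the intergenic share added that value was -0.10 (adjusted p = 0.40), and Eif5a was called higher in Tg at 24 h (0.17, adjusted p = 0.034) and SW016789 at 6 h (0.21, adjusted p = 0.025). The Eif5a2 to Eif5a ratio of reads per base was 0.131 ± 0.0035 in DMSO at 6 h, 0.0793 ± 0.0049 in Tg and 0.0964 ± 0.0055 in SW016789. Eif6, which keeps ribosomal subunits apart, was at 54.7, 54.3 and 58.5 CPM in Tg at 24 h against 37.3, 43.5 and 37.6 CPM in DMSO (0.50 ± 0.11, adjusted p = 3.6e-04). At 6 h Eif6 was at 0.34 ± 0.11 for Tg (adjusted p = 0.023) and 0.42 ± 0.11 for SW016789 (adjusted p = 0.0089), calls that 5 and 4 of the single libraries ended. The Tg call at 6 h was also lost without the libraries above 25% intergenic reads.

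The 2 treatments shared their DMSO libraries, so they were compared directly. At 1 and 2 h no member differed between SW016789 and Tg by edgeR. At 1 h 0.106% of all genes were called higher in SW016789 and 0.0046% lower, and at 2 h 0.565 and 0.101%. There were 1 and 7 members at an unadjusted p below 0.05, and DESeq2 called 0. At 6 h 9 members were higher and 4 lower in SW016789, where the calls over all genes were 7.54% higher and 4.01% lower, and 16.3 and 8.06% among genes with at least 10 CPM. At 24 h 1 was higher and 14 were lower, where 9.78% of genes were called higher and 8.26% lower, and 19.6 and 16.7% among genes with at least 10 CPM.

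**Figure D5:**
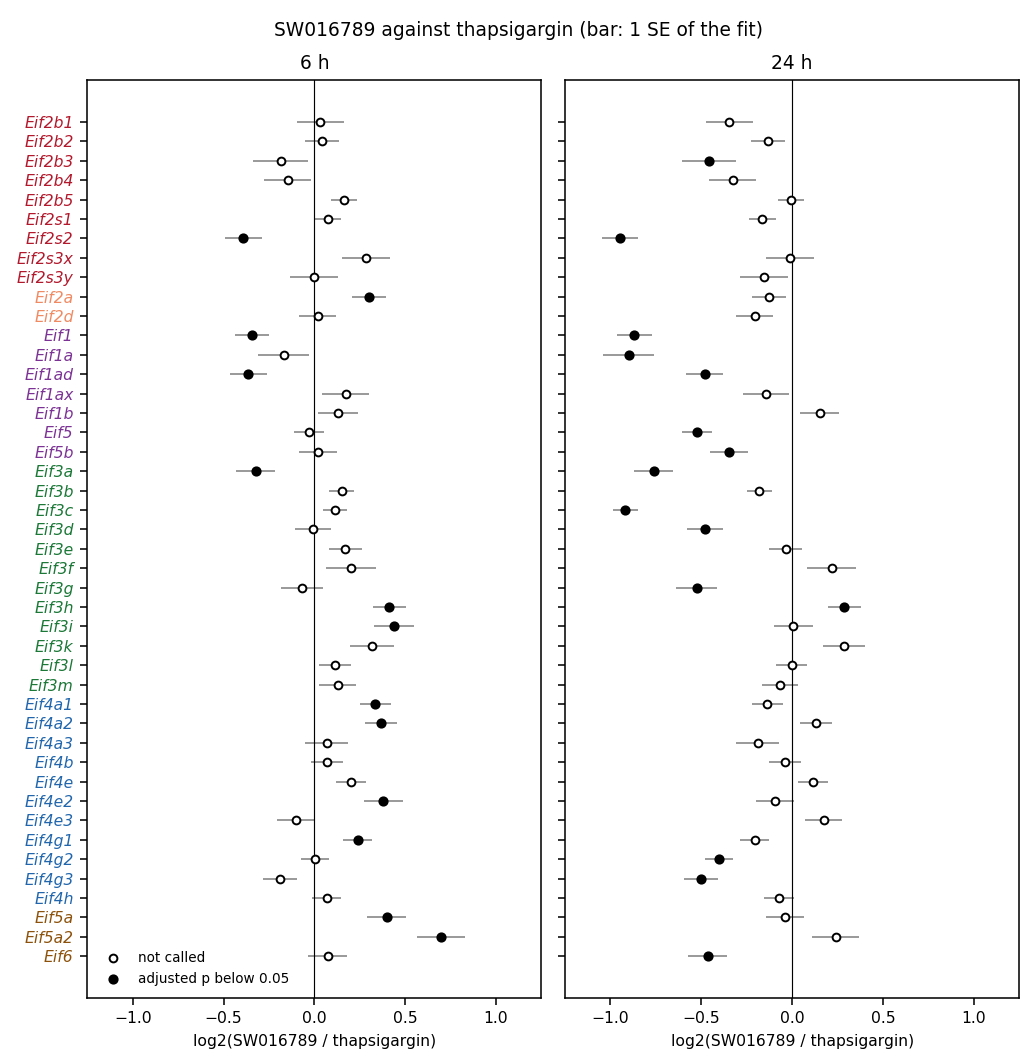
Log2 ratio of SW016789 to Tg for 44 initiation factor genes at 6 h (left) and 24 h (right), with 1 SE of the fit as bars and filled points for an adjusted p below 0.05 (edgeR), names coloured by role as in the plot of control levels. At 24 h 14 genes lay lower in SW016789, from -0.95 for Eif2s2 to -0.35 for Eif5b.

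At 24 h the genes lower in SW016789 were led by Eif2s2 (-0.95 ± 0.10, adjusted p = 2.5e-09), Eif3c (-0.92 ± 0.07, adjusted p = 6.1e-13), Eif1a (-0.90 ± 0.14, adjusted p = 4.4e-06), Eif1 (-0.87 ± 0.09, adjusted p = 4.5e-09) and Eif3a (-0.76 ± 0.11, adjusted p = 1.0e-06). For each of these 5 genes all SW016789 libraries lay below all Tg libraries, and no single library ended the call. Eif3g, Eif5, Eif4g3, Eif1ad, Eif3d, Eif6, Eif2b3, Eif4g2 and Eif5b were lower by -0.53 to -0.35. Of these, Eif2b3 and Eif5b lost their calls without 4 of the 6 libraries, and Eif1ad and Eif4g2 without Tg replicate 3. Eif3h was higher at 0.29 ± 0.09 (adjusted p = 0.019), lost without 5 of the 6 libraries.

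At 6 h the direct differences were smaller, and every call but that of Eif5a2 was lost without 1 or more single libraries. Without SW016789 replicate 2 the calls of Eif2s2 and Eif1 were lost at log2 values of -0.43 and -0.39. Without Tg replicate 1 these values were -0.20 and -0.16. Eif2s2 (-0.39 ± 0.10, adjusted p = 0.0063), Eif1ad (-0.36), Eif1 (-0.34) and Eif3a (-0.32) were lower in SW016789. Eif5a2 was higher at 0.70 ± 0.13 (adjusted p = 2.5e-04), and this was the only one of the 13 calls that held without any 1 library. The others higher were Eif3i (0.44), Eif3h (0.41), Eif5a (0.40), Eif4e2 (0.38), Eif4a2 (0.37), Eif4a1 (0.34), Eif2a (0.30) and Eif4g1 (0.24). The count of 13 fell to 1 without SW016789 replicate 2 or 3 and when only the libraries compared were fitted, and to 7 without Tg replicate 3.

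The change of each effect from 6 to 24 h was tested as an interaction. For Tg it grew in 4 members and shrank in 0, where 3.13% of genes were called higher and 3.15% lower, and with the experiment block in 7 members. The 4 were Eif3c (0.58 ± 0.10, adjusted p = 9.3e-05), Eif4g2 (0.43 ± 0.11, adjusted p = 0.011), Eif4g1 (0.41 ± 0.11, adjusted p = 0.023) and Eif5a2 (0.60 ± 0.18, adjusted p = 0.044), the last being a fall that lessened. For SW016789 it fell in 2 members and rose in 0, where 0.515% of genes were called higher and 0.938% lower. Among genes with at least 10 CPM the shares were 1.11 and 2.03%. The 2 members were Eif2s2 (-0.69 ± 0.14, adjusted p = 0.0038) and Eif3c (-0.45 ± 0.10, adjusted p = 0.0056). The Eif3c change in Tg held without any 1 library. The count for Tg was 8 without Tg replicate 1 of 6 h. It was 1 without replicate 1 or 2 of DMSO at 6 h, replicate 3 of DMSO at 24 h, replicate 2 of Tg at 6 h or replicate 2 or 3 of Tg at 24 h, and 2 without replicate 1 of DMSO at 24 h or replicate 3 of DMSO or Tg at 6 h. That for SW016789 was 0 without DMSO replicate 1 of 6 h or SW016789 replicate 2 or 3 of 6 h, and 1 without DMSO replicate 1 of 24 h or DMSO replicate 3 of 6 h.

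Genes around the initiation factors were taken from 4 lists. In Tg 8.06% of all genes were called higher and 8.73% lower at 6 h, and 10.1 and 10.7% at 24 h. In SW016789 the shares were 4.19 and 2.85% at 6 h, and 1.95 and 1.06% at 24 h. Among genes with at least 10 CPM they were 11.7 and 18.6%, and 19.7 and 21.4%, in Tg. For SW016789 these were 8.66 and 6.17%, and 4.17 and 2.29%. The first list held 9 genes, namely those of eIF2 kinases and phosphatase subunits with Atf4, Ddit3 and Trib3. Of these, 6 were called higher and 0 lower in Tg at 6 h, and 6 and 1 at 24 h. In SW016789 the calls were 5 and 1 at 6 h and 3 and 0 at 24 h. These are RNA levels, and the counts hold no measure of eIF2 phosphorylation. From immunoblots of MIN6 cells the paper reports more phosphorylated eIF2α with Tg and little effect of SW016789 on it. Atf4, whose translation rises when eIF2 is phosphorylated, was at a mean of 626 CPM in Tg at 6 h and 469 CPM in SW016789 against 177 CPM in DMSO (1.82 ± 0.10 and 1.41 ± 0.10, adjusted p = 7.3e-16 and 8.3e-13). Ppp1r15a, the inducible subunit of the eIF2 phosphatase, was at 3.55 ± 0.13 in Tg at 24 h (adjusted p = 3.6e-21), and in SW016789 at 1.65 ± 0.12 at 6 h (adjusted p = 1.5e-12). Eif2ak3, which encodes PERK, was at 1.13 ± 0.10 in Tg and 0.37 ± 0.10 in SW016789 at 24 h (adjusted p = 3.0e-11 and 0.029).

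The counts of the other 3 lists are to be read beside the same shares over all genes. Of 11 regulators of eIF4F, 2 were called higher and 3 lower in Tg at 6 h, and 3 and 3 at 24 h. In SW016789 the calls were 2 and 0 at 6 h and 1 and 0 at 24 h. Eif4ebp1, which binds eIF4E and blocks eIF4F, had means of 74.1 CPM in Tg at 6 h and 56.2 CPM in SW016789 against 9.34 CPM in DMSO (2.99 ± 0.15 and 2.59 ± 0.15, adjusted p = 6.2e-17 and 3.5e-15). Eif4ebp2, its relative, fell by 0.53 ± 0.08 in Tg at 6 h (adjusted p = 7.5e-06). Pdcd4, an inhibitor of eIF4A, fell by 0.89 ± 0.10 in Tg at 24 h (adjusted p = 4.1e-09). Of 7 helpers of scanning and recycling, Abce1, which splits ribosomes, was called in both treatments at 6 h (0.45 ± 0.08 and 0.34 ± 0.08, adjusted p = 2.3e-05 and 0.0018). Of 10 elongation and release factors, 1 was higher and 2 lower in Tg at 6 h, 3 and 0 at 24 h, and 1 and 0 in SW016789 at each of those times.

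The summed level of 7 markers of other islet cells was 271 to 356 CPM in the control libraries, 309.7 to 364 CPM in SW016789 at 6 h and 267 to 335 CPM at 24 h. In Tg it was 163 to 198 CPM at 6 h and 77.8 to 83.3 CPM at 24 h, below every control library, and none of the 7 was at 0. Only 2 of the 7 had a mean of at least 1 CPM in each control group and in Tg at 24 h, and 3 in Tg at 6 h. The sum thus describes few genes. The summed level of 14 stromal, endothelial and immune markers was 15.1 to 18.6 CPM in DMSO, 12.8 to 53.2 CPM in SW016789 and 19.1 to 76.6 CPM in Tg at 6 h, and 12.2 to 26.3 CPM in all libraries of 24 h. That of 14 acinar and ductal markers was 10.5 to 12.7, 14.1 to 23.7 and 10.7 to 34.3 CPM at 6 h, and Prss2 was at 0 in all DMSO and SW016789 libraries of that time. The part of these RNAs in the values of the initiation factors was not tested.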

How the data were processed

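Counts of RNA-seq reads per gene were deposited by the authors as 1 table of 39 libraries, made with the aligner STAR and featureCounts of Subread on mm10. Versions in the processing notes of the submitters are 2.5.2b (STAR) and 1.5.1 (Subread). The sources disagree on these versions and on the library kit (removal of ribosomal RNA or selection of mRNA). The table's 78 columns of normalized values were left aside. Counts were analysed in edgeR 4.0.16 (R 4.3.3) with TMM scaling, filterByExpr and the quasi-likelihood test over all 13 groups, with Benjamini-Hochberg adjustment at 0.05. The SE of a log2 fold change was taken as its size divided by the square root of the test's F. It thus rests on the fit of all 39 libraries, not on the libraries of the groups compared alone. Scripts were tested on simulated counts, whose spread between replicates (dispersion) was set far below the common dispersion of 0.344 estimated from these data.

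Alternatives were DESeq2 1.42.0, its size factors, no filter, the experiment number as a block, the block with the intergenic percent, the libraries compared alone, and leaving out single libraries or those above 25% intergenic reads. The series' design text gives 3 experiments of 13 samples and the titles number the libraries of each group 1 to 3, and the number was taken as the experiment. Same-numbered libraries deviated together only weakly (median correlation 0.058 over 234 pairs, 105 above 0.1, beside -0.027 over 468 other pairs, 137 above 0.1). No replicate pair agreed within sampling noise (lowest chi-square per degree of freedom 5.87, where 1 is noise).

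The members, gene lists and tests were chosen with earlier results of these data known. Genes were named by a rule: the 8 largest called changes in each direction per treatment with libraries that did not overlap, and a fixed list. Eif3d, Eif3l, Eif3m, Eif2s3y and the ratios were added after values were seen.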

Additional observations from a re-analysis of the deposited data

Results flagged for a closer look

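The effect of a treatment differed between 6 and 24 h, by the interaction test in edgeR with adjustment over all genes, for 6 values. For Tg the log2 change of the effect was 0.5786 for Eif3c, which held without any 1 of the 12 libraries, 0.4279 for Eif4g2, lost without 7 of them, 0.4113 for Eif4g1, lost without 10, and 0.5956 for Eif5a2, lost without 10. For SW016789 it was -0.6896 for Eif2s2, lost without 3 libraries, and -0.4536 for Eif3c, lost without 5.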

How the results depend on the processing

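No call against DMSO or between treatments changed direction under the alternatives run. The members' median log2 value changed sign with the block and intergenic percent at 1 h, from -0.08 to 0.0057 in Tg and from -0.04 to 0.04 in SW016789, and without libraries above 25% intergenic reads to 0.0038 in SW016789. The number of members called in Tg at 2 h was 0, and was 3 with DESeq2, 1 with DESeq2 size factors, 2 with the replicate block, 6 with the block and intergenic percent and 0 to 2 without 1 library. In Tg at 6 h (14) it was 8 to 12, and at 24 h (18) 13 to 17, without 1 library. In SW016789 at 2 h (3) it was 5 with DESeq2, 8 with the block and intergenic percent, 0 with the libraries compared alone and 1 to 3 without 1 library. At 6 h (9) it was 21 with the block and intergenic percent, 16 without libraries above 25% intergenic reads and 2 to 9 without 1 library, and at 24 h (1) 0 to 1. Between SW016789 and Tg at 6 h (13) it was 1 with the libraries compared alone and 1 to 11 without 1 library. The change from 6 to 24 h was called for Tg (4) in 7 members with DESeq2, 7 with the block, 8 with the libraries compared alone and 1 to 8 without 1 library, and for SW016789 (2) in 4, in 8 with the block and intergenic percent and in 0 to 2 without 1 library. The cause was not tested. The block alone ended no call.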
